A study of Mus musculus with 15 samples.

Results

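The genes described here encode transcription factors known chiefly for laying out the nervous system, gut, kidney, heart and skeleton, although a few, such as Gata6 in resident macrophages of the peritoneum, also act in blood cells. The histone marks at the starts of 47 such genes, of 22209 protein-coding gene starts counted, were followed while pre-B cells were turned into macrophage-like cells. The genes came from a list of names, drawn up with earlier results of these data known: 28 with roles in the nervous system, 6 in endoderm, 4 in the urogenital tract and 9 in mesoderm, which here includes heart, limb, skeleton and vessels. All 47 were placed on mouse genome build mm9, Sox1 by an exact match of its RefSeq promoter because the annotation does not list it. No 5 kb window around a start held the start of another coding gene.

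The study carried out ChIP-seq (chromatin immunoprecipitation followed by sequencing) on C10 cells, a clone of the mouse pre-B line HAFTL that carries the transcription factor C/EBPα fused to an estrogen receptor domain and tagged with GFP. β-estradiol moves the fusion protein into the nucleus. Per the labels, cells received 100 nM β-estradiol, a far lower concentration than the study's methods state, and were grown with IL-3 and CSF-1 at 10 nM, and control cells received the solvent, 0.1% ethanol. H3K27Me3, H3K4Me1 and H3K27Ac were mapped at 0, 3, 12, 24 and 48 h post-induction (hpi), with 1 library for each mark and time, 15 in all, so every cell measured carried the fusion gene and no difference between times has a replicate check.

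H3K27Me3 is laid down by Polycomb repressive complex 2 and marks genes held silent, often over broad domains. Developmental regulators with CpG-rich starts are its best known targets, and in stem cells many of them carry it together with an active mark, a state called bivalent. The study defined bivalent promoters by H3K27Me3 with H3K4Me3. H3K4Me3 was not among the marks counted here, so whether these starts were bivalent was not measured. H3K27Ac marks active promoters and enhancers, and H3K4Me1 marks enhancers and the flanks of promoters.

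The deposited libraries held 11041458 to 17847176 tags for H3K4Me1, 15929378 to 18564296 for H3K27Ac and 15358857 to 31557475 for H3K27Me3. After 1 tag per position was kept and the libraries of a mark were thinned to equal size, 15338280 tags remained for H3K27Me3, 10913733 for H3K4Me1 and 15216488 for H3K27Ac. All values below are tags after thinning, in the 5 kb around a start for H3K27Me3 and in 3 kb for the active marks. A window at the genome mean held 30.5, 14.2 and 19.3 tags for H3K27Me3, H3K4Me1 and H3K27Ac. A window was called enriched from 50, 28 and 35 tags, where the Poisson upper tail over the genome mean falls below 0.001. The intervals given are 95%. Those of counts and ratios cover counting error only. Those of shares treat genes as independent draws, although the genes were picked by name and some are neighbours, so they are no test against all starts. The cells moved as labelled: H3K27Ac at the starts of 8 of 8 pre-B markers was lower at 48 than at 0 hpi (median log2 change -1.51). At 8 of 8 macrophage markers it was higher (median 2.44). It was also lower at 5 of 6 housekeeping genes (median -0.56), and the median over all starts was -0.14. A lower count alone is thus not particular to the pre-B markers.

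The starts of these genes are rich in CpG. The 3 kb around them had a median GC content of 56.2%, against 49.2% over all starts, and a median observed-to-expected CpG ratio of 0.626 against 0.405. The 250 bases before the start are printed for 5 genes that stand for the states found, from mm9, read 5′ to 3′ on the gene's strand, with each CG dinucleotide in capitals. Neurog2 (chr3:127335804-127336053, + strand, 8 CG) and Pax8 (chr2:24331120-24331369, - strand, 6 CG) had the highest H3K27Me3 of the 47 at 0 hpi. Foxc1 (chr13:31898265-31898514, + strand, 29 CG) and Lhx2 (chr2:38194551-38194800, + strand, 25 CG) carried H3K27Ac. Sox2 (chr3:34548677-34548926, + strand, 25 CG) was enriched in none of the marks counted here at any time.
Neurog2: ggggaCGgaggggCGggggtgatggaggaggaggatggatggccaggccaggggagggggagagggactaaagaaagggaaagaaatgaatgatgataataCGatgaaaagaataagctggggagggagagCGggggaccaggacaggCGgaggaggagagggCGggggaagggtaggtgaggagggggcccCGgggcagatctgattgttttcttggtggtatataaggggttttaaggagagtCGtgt
Pax8: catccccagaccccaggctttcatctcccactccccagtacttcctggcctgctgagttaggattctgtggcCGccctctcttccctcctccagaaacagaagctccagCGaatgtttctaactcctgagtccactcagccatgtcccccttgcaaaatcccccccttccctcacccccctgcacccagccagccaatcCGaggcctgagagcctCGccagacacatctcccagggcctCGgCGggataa
Foxc1: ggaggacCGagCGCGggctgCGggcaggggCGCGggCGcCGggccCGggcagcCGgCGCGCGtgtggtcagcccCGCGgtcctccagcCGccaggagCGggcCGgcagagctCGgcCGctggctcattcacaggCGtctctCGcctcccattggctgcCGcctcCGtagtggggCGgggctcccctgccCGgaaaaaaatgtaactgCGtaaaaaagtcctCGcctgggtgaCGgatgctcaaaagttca
Lhx2: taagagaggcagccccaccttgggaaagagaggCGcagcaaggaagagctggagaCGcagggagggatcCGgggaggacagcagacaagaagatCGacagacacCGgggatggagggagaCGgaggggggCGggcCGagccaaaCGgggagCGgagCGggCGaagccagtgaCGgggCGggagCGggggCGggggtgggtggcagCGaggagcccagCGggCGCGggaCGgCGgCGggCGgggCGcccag
Sox2: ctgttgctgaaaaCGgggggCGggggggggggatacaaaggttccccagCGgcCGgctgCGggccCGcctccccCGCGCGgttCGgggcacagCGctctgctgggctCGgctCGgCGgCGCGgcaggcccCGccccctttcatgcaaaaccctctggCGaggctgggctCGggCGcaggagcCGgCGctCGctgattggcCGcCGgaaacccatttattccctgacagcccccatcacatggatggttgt

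CG content did not sort the genes by H3K27Me3 one by one. Neurog1 and Tbx2, enriched at all times, held 32 and 28 CG in the 300 bases around the start, and Neurog2 had a CpG ratio of 0.77 in 3 kb. Over all 47 genes, H3K27Me3 at 0 hpi was lower where the CpG ratio was higher (Spearman's rho -0.471, n = 47 starts in 1 library, which share depth and base composition; -0.234 at 48 hpi). The 27 starts never enriched in H3K27Me3 had a median CpG ratio of 0.699, and the 8 always enriched had 0.59. Among all starts without an active mark at 0 hpi, the median H3K27Me3 count was 23 tags at a GC content under 40%, 28 at 40 to 45%, 39 at 45 to 55%, 34 at 55 to 60% and 27 at 60% or more. The developmental genes among them had medians of 45 tags at 45 to 50% (5 genes), 53 at 50 to 55% (13), 33 at 55 to 60% (15) and 24 at 60% or more (9). These medians were above those of all such starts up to 55% and below them from 55% on. Base composition thus moves with the tag count outside these genes too, and its part in the differences below was not tested. Each promoter, taken as 250 bases before to 50 after the start, was also searched on both strands for TTGCNNAA, which resembles the site of C/EBP factors, and for AGGAAGT, which resembles that of PU.1. The first occurred in 9 of 47 (19.1%) and in 10.3% of all promoters, and the second in 2 of 47 (4.26%) and in 9.04%. Pax8 held a match to each.

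H3K27Me3 lay on the starts of about as large a share of these genes as of other genes without active marks. At 0 hpi 15 of 47 windows were enriched (31.9%, exact binomial interval 19.1 to 47.1%), against 21.8% of all starts, and at 48 hpi 14 of 47 against 23.8%. At 3, 12 and 24 hpi the counts were 13, 15 and 12 (27.7, 31.9 and 25.5%), against 20.6, 23.6 and 21.8% of all starts. Compared with the 10943 other starts that lacked both active marks at 0 hpi, of which 28.1% were enriched, the 42 developmental genes of that kind had 13 enriched, or 31.0%. At 24 and 48 hpi the order was the other way, with 23.8% of the 42 genes against 29.1% and then 28.6% against 30.6%. The median count over the 47 genes was 40, 36, 36, 32 and 32 tags at 0, 3, 12, 24 and 48 hpi, against 25, 24, 24, 22 and 23 over all starts. Over the 42 genes without active marks at 0 hpi it was 40, 36.5, 36, 30 and 32. The 10943 other such starts had 31, 31, 29, 30 and 29. At 0 hpi 19 of the 47 lay below the genome mean (40.4%, against 58.7% of all starts). Without active marks at 0 hpi the shares were 38.1% of the 42 genes and 49.2% of the 10943 others. In a population of cells, a lower count can come from fewer cells with the mark or from less of it in each cell, and these cannot be told apart. By tissue, 7 of 28 neural, 1 of 6 endoderm, 2 of 4 urogenital and 5 of 9 mesoderm genes were enriched at 0 hpi.

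**Figure D1:**
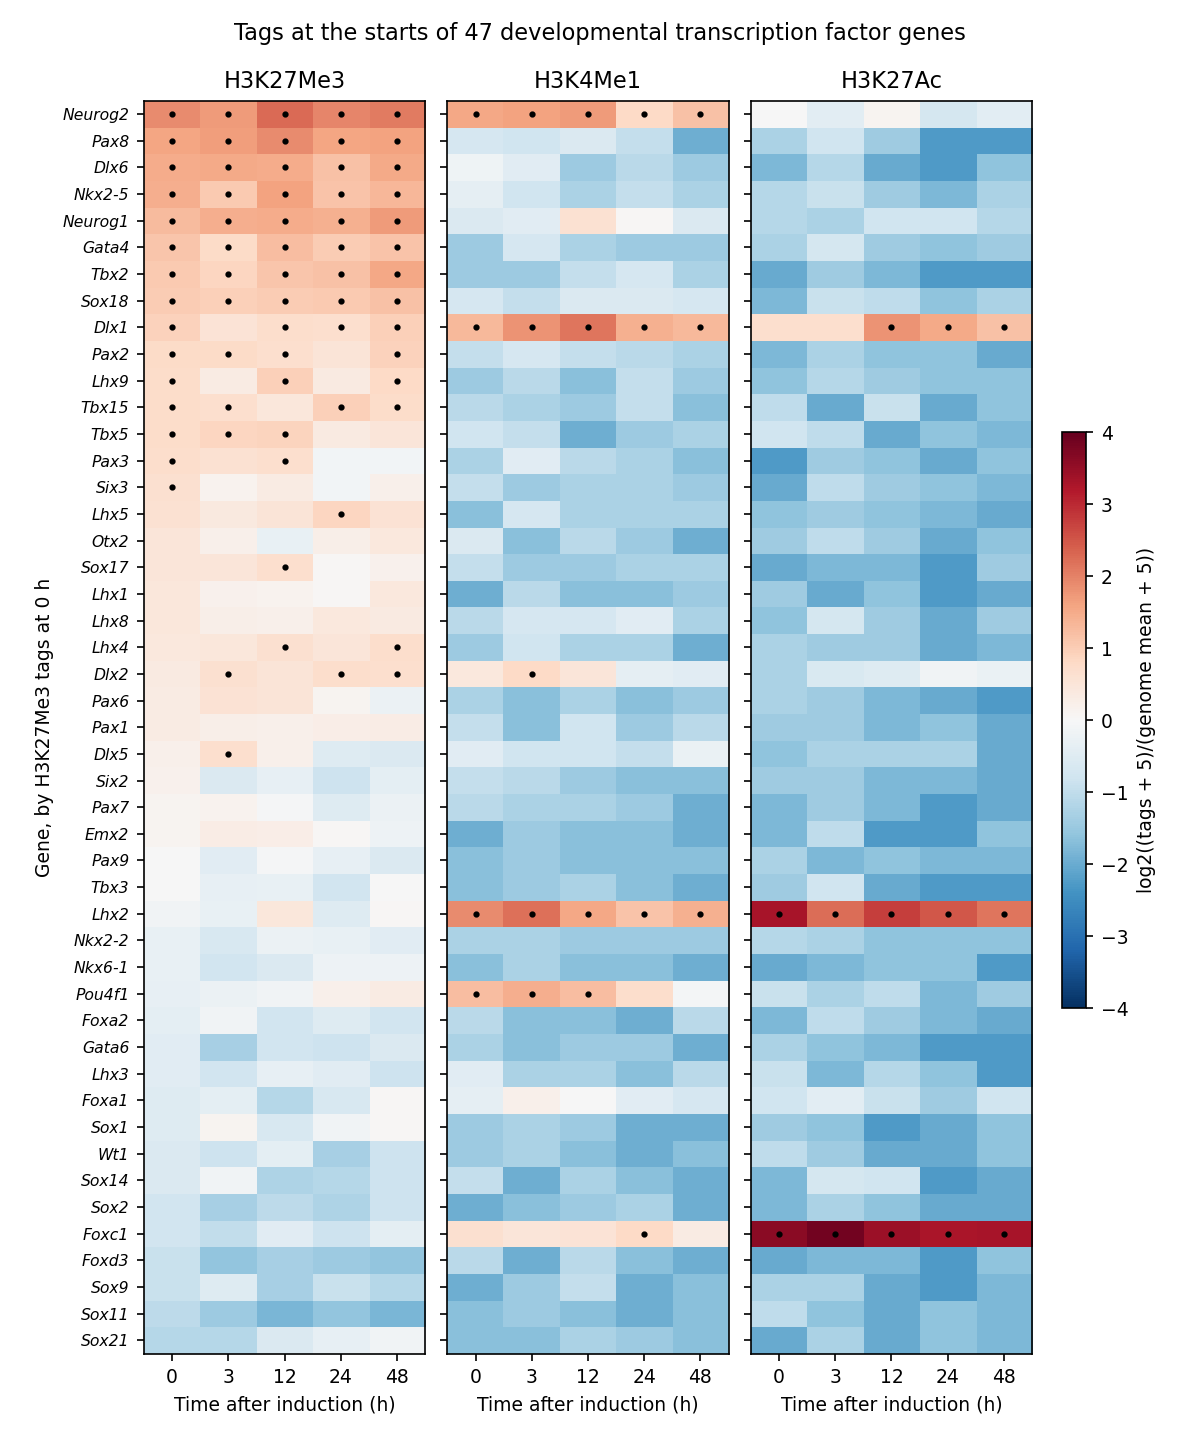
Tags at the 47 starts in all 15 libraries, as log2((tags + 5)/(genome mean + 5)), with genes in rows ordered by H3K27Me3 at 0 h and the 5 times in columns for each mark; black dots mark enriched windows. H3K27Me3 was enriched at 15 starts at 0 h and 14 at 48 h, while the H3K4Me1 and H3K27Ac panels are below the genome mean in all but a few rows.

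Of the 47 genes, 8 (17.0%) were enriched in H3K27Me3 at all 5 times, against 15.5% of all starts. The count rested on the window: in 10 kb it was 14, and the share of all starts was not computed at that width. Among starts without an active mark at 0 hpi the shares were 16.7% of 42 developmental genes and 20.2% of 10943 others. Neurog2, a proneural basic helix-loop-helix (bHLH) factor that commits progenitors to neurons, had the highest counts, with 127, 111, 166, 133 and 144 tags at 0, 3, 12, 24 and 48 hpi. Neurog1, its relative in sensory ganglia, had 80, 93, 95, 91 and 110. Pax8, needed for thyroid and kidney, had 100, 108, 127, 100 and 103. Dlx6, a homeobox factor of forebrain interneurons and the jaw, had 94, 97, 95, 75 and 96. The counts of these genes were above the cutoff of 50 by a wide margin in every library. Nkx2-5, a homeobox factor of the early heart, had 92, 69, 103, 74 and 85, and Gata4, a zinc finger factor of heart and endoderm, had 71, 55, 79, 67 and 74. Tbx2, a T-box repressor in the heart's atrioventricular canal, had 69, 60, 72, 75 and 98, its highest count being the last. Sox18, a factor of blood and lymph vessel lining, varied least of the 8, with 67, 63, 66, 68 and 75.

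A further 12 genes were enriched at 1 to 4 times, which made 20 of 47 enriched at some time (42.6%), against 29.6% of all starts. Pax2, a kidney and midbrain factor, had 56, 56, 51, 46 and 62 tags, and Tbx15, which acts in skeletal and skin mesenchyme, had 54, 51, 44, 63 and 54. Dlx1, an interneuron factor, had 62, 47, 53, 52 and 63, and Dlx2, its neighbour and partner, had 41, 50, 46, 53 and 51. Lhx9, a LIM homeobox factor of the gonad and nervous system, had 54, 40, 63, 41 and 57. Tbx5, a factor of heart and forelimb, had 54, 59, 61, 41 and 45. Over these 6 genes all counts lay between 40 and 63, on both sides of the cutoff. Lhx4, a factor of pituitary and motor neurons, had 43, 44, 50, 45 and 53, and Lhx5, a forebrain factor, had 49, 42, 46, 60 and 48. Sox17, a master factor of endoderm, reached the cutoff at 12 hpi only, with 45, 45, 51, 32 and 35. Six3, a factor of the forebrain and eye, had 50, 34, 40, 28 and 36. Pax3, which acts in neural crest and muscle progenitors, had 53, 49, 51, 28 and 28: its counts at 0 to 12 hpi were near 50 and those at 24 and 48 hpi were below the genome mean. Dlx5, a skeletal and forebrain factor that lies beside Dlx6, had 36, 51, 36, 20 and 19, with the lowest values likewise at the last times.

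The other 27 starts were enriched in H3K27Me3 in no library. Of these, 8 had at least 33 tags at 0 hpi, above the genome mean but short of the cutoff. Otx2, a head and forebrain factor, had 45, 36, 24, 37 and 43 tags, and Lhx1, needed for head and kidney formation, had 44, 35, 34, 32 and 43. Lhx8, a factor of cholinergic neurons, had 44, 37, 36, 43 and 41. Pax6, the eye factor, had 40, 48, 46, 33 and 25, and Pax1, a factor of the developing spine, had 40, 37, 36, 38 and 39. Six2, which maintains kidney progenitors, had 35, 19, 23, 15 and 22. Pax7, the factor of muscle satellite cells, had 33, 34, 29, 20 and 25, and Emx2, of cortex and urogenital tract, had 33, 39, 38, 32 and 26. Pax1 held the steadiest of these counts. By the ratio of the highest to the lowest count, with 5 tags added to each, Six2 spanned most (2.0), followed by Pax6 (1.77) and Otx2 (1.72).

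Another 13 of the 27 began at or below the genome mean with 19 to 30 tags. Pax9, of teeth and pharyngeal pouches, had 30, 21, 29, 23 and 19 tags, and Tbx3, of limb and mammary gland, had 30, 23, 24, 16 and 30. Lhx2, of cortex and hair follicle, had 27, 24, 44, 20 and 32. Nkx2-2, which patterns the ventral neural tube, had 24, 18, 25, 24 and 21, and Nkx6-1, of motor neuron progenitors and insulin-producing cells, had 24, 16, 19, 26 and 26. Pou4f1, a sensory neuron factor also called Brn3a, had 23, 25, 27, 36 and 40. Its counts were higher at each later time. Foxa2 and Foxa1 are pioneer factors of endoderm: Foxa2 had 22, 27, 16, 20 and 16, and Foxa1 had 20, 22, 11, 18 and 32. Gata6, which acts in endoderm and heart, had 21, 9, 16, 15 and 19. Lhx3, a pituitary and motor neuron factor, had 21, 16, 23, 21 and 15. Sox1, of neural progenitors, had 20, 33, 18, 27 and 32. Wt1, a kidney and gonad factor, had 19, 15, 22, 9 and 15, and Sox14, of interneurons, had 19, 27, 10, 11 and 15. These counts lay below the genome mean of 30.5 tags except for Lhx2 at 12 and 48 hpi, Pou4f1 at 24 and 48 hpi, Sox1 at 3 and 48 hpi, and Foxa1 at 48 hpi.

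The lowest 6 starts at 0 hpi included 4 Sox genes. Sox2, the neural and pluripotency factor, had 16, 9, 12, 10 and 15 tags, Sox9, of cartilage and testis, had 14, 20, 9, 14 and 11, and Sox11, of immature neurons, had 12, 8, 5, 7 and 5. Sox21, another neural factor, had 11, 11, 19, 23 and 27 tags. It was the only gene of the 47 whose change from 0 to 48 hpi reached 2-fold once 5 tags were added to each count. That call was lost in windows of double width, without thinning and when scaled on constantly enriched bins. Foxd3, of neural crest, had 14, 7, 9, 8 and 7, and Foxc1, of eye and skull mesoderm, had 16, 13, 21, 15 and 22. In the first library these 6 held 11 to 16 tags, well below the 30.5 of the genome mean.

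H3K27Me3 at these starts changed about as little between 0 and 48 hpi as at other starts. Counts at 0 and 48 hpi ranked the 47 genes in nearly the same order (Spearman's rho 0.886, n = 47 starts in 2 libraries of equal depth). The median log2 change, computed with 5 tags added to each count, was -0.03 over the 47 genes (0.11 when scaled on background bins and -0.18 on constantly enriched bins) and 0.00 over all starts, and the lowest single value was -0.81, at Pax3. Of the 47, 1 gene was at least 2-fold higher, against 0.725% of all starts, and 0 were at least 2-fold lower, against 1.57%. The highest of the 5 counts was less than 2 times the lowest at 42 of 47 (89.4%; 87.1% of all starts), again with 5 tags added. Of the 15 genes enriched at 0 hpi, 12 were enriched at 48 hpi, where 87.5% of all 4844 starts enriched at 0 hpi were, 3 were not (Pax3, Tbx5 and Six3), and 2 were enriched at 48 hpi but not at 0 hpi (Lhx4 and Dlx2).

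The exact interval of the ratio of 48 to 0 hpi counts lay above 1 at 4 genes, where 5.67% of all starts did so, and below 1 at 2 genes, against 3.78%. The highest ratios were those of Sox21 (2.45, interval 1.18 to 5.48) and Pou4f1 (1.74, 1.02 to 3.04), followed by Sox1 and Foxa1, each with 1.6 (0.887 to 2.95). Tbx2 (1.42, 1.03 to 1.96) and Neurog1 (1.38, 1.02 to 1.86) started from higher counts. Among genes with at least 20 tags at 0 or 48 hpi the lowest were Pax3 (0.528, 0.322 to 0.85) and Dlx5 (0.528, 0.286 to 0.945). Pax6 had 0.625 (0.363 to 1.06). Sox11 and Foxd3 had lower ratios, 0.417 and 0.5, from counts of 12 and 14 tags, and their intervals included 1. The change at Dlx5 depended on the window: its log2 value was -0.77 in 5 kb and 0.17 in 10 kb. With 1 library at each time, these intervals say nothing of the spread between cultures.

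**Figure D2:**
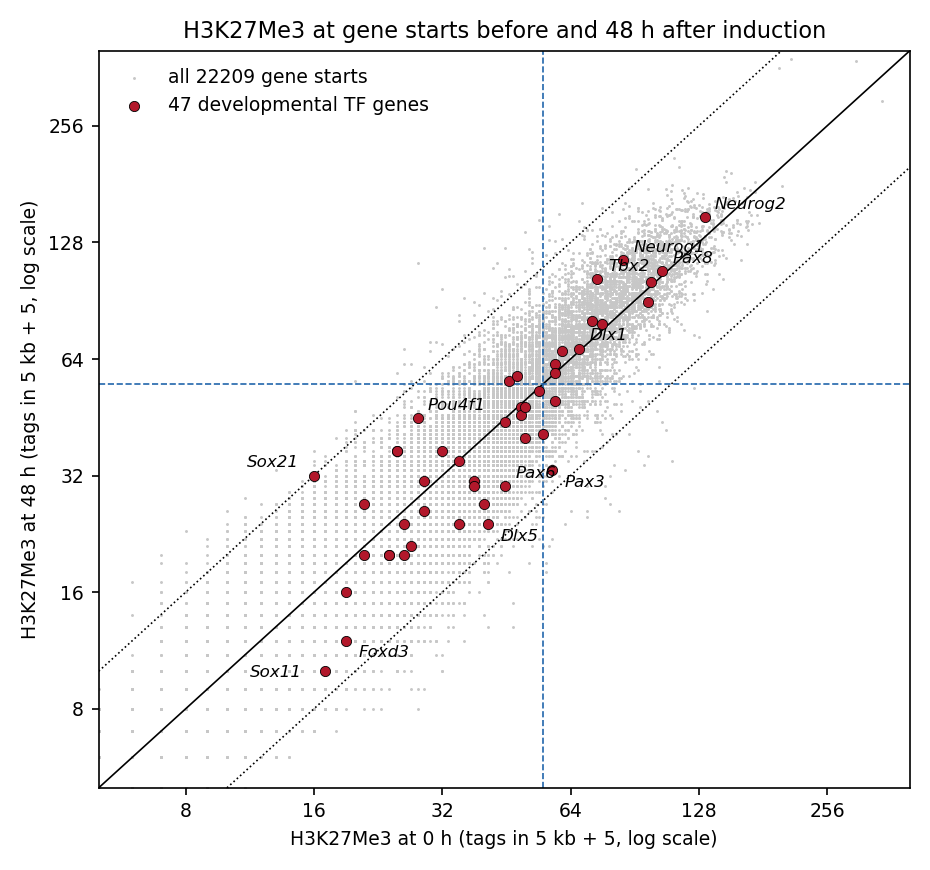
H3K27Me3 tags in 5 kb at 0 h (x axis) and 48 h (y axis), each plus 5 on a log scale, for the 47 genes in red and all 22209 starts in grey; the solid line is equality, the dotted lines 2-fold, and the dashed lines the cutoff of 50 tags. The red points follow the line of equality, with Sox21 on the upper 2-fold line and Pax3, Dlx5 and Sox11 nearest the lower one.

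The mark was fuller beside these starts than on them. Averaged over the 47 genes at 0 hpi, H3K27Me3 was 1.09 times the genome mean within 1 kb of the start, 1.68 times at 1 to 5 kb, 1.86 times at 5 to 10 kb and 1.35 times at 40 to 50 kb. At 48 hpi the same values were 1.23, 1.71, 1.76 and 1.36. The 10943 other starts without an active mark had 1.15, 1.26, 1.2 and 1.05 at 0 hpi, a shallower dip and a lower shoulder. The mean of the developmental genes peaked 8.5 kb downstream of the start at 0 and at 48 hpi, at 2.23 and 2.1 times the genome mean.

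**Figure D3:**
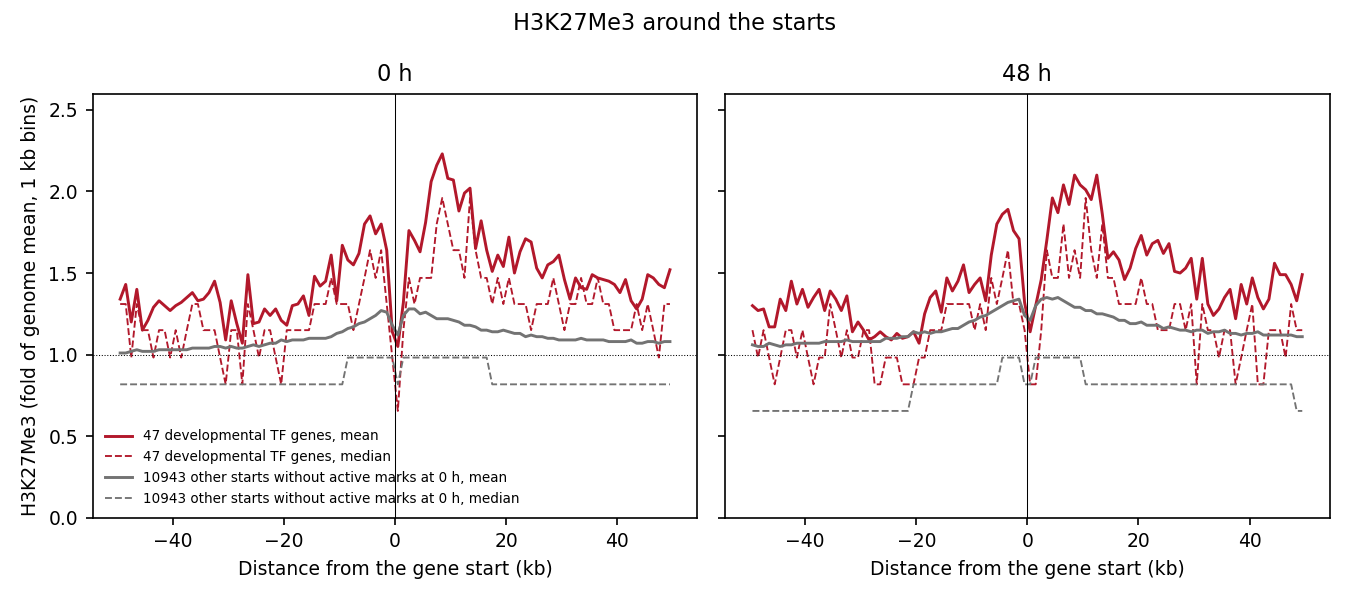
H3K27Me3 in 1 kb bins against distance from the start, in kb along the direction of transcription, as fold of the genome mean at 0 h (left) and 48 h (right); solid lines are means and dashed lines medians over the 47 genes (red) and 10943 other starts without an active mark at 0 h (grey). The red mean averages 1.09 within 1 kb of the start and rises to 2.23 at 8.5 kb downstream at 0 h.

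Windows of 5 kb centred 7.5 kb up- and downstream were then counted gene by gene. They were placed where this profile was seen to be high, in the same libraries, so the counts describe that pattern and are no separate support for it. At 0 hpi 33 of 47 genes had at least 1 enriched flank (70.2%), against 39.1% of all starts, and at 48 hpi 32 of 47 (68.1%), against 41.6%. Among starts without an active mark at 0 hpi the shares were 71.4% of 42 developmental genes and 39.3% of 10943 others. An enriched flank was present at all 5 times in 27 of the 47 (57.4%), against 32.5% of all starts. Start and flank calls were counted jointly over the 47 genes only, not over all starts. All 15 genes with an enriched start at 0 hpi had an enriched flank, 18 had an enriched flank only, and 14 had neither. Lhx1 is an example of the second kind, with 44 tags on its start, 109 upstream and 118 downstream, and Foxa1 had 20, 68 and 83. Dlx1 and Gata4 carried most of it downstream, with 144 and 140 tags there and 19 and 35 upstream. The mean of both flanks was above the start window in 32 of 47 genes at 0 hpi (68.1%; 54.2% of all starts) and in 38 at 48 hpi (80.9%; 54.6%). The median GC content was 53.9% in the 5 kb on these starts and 46.8% in their flanks, and over all starts 47.3% and 43.9%; the part of base composition in the dip was not tested.

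**Figure D4:**
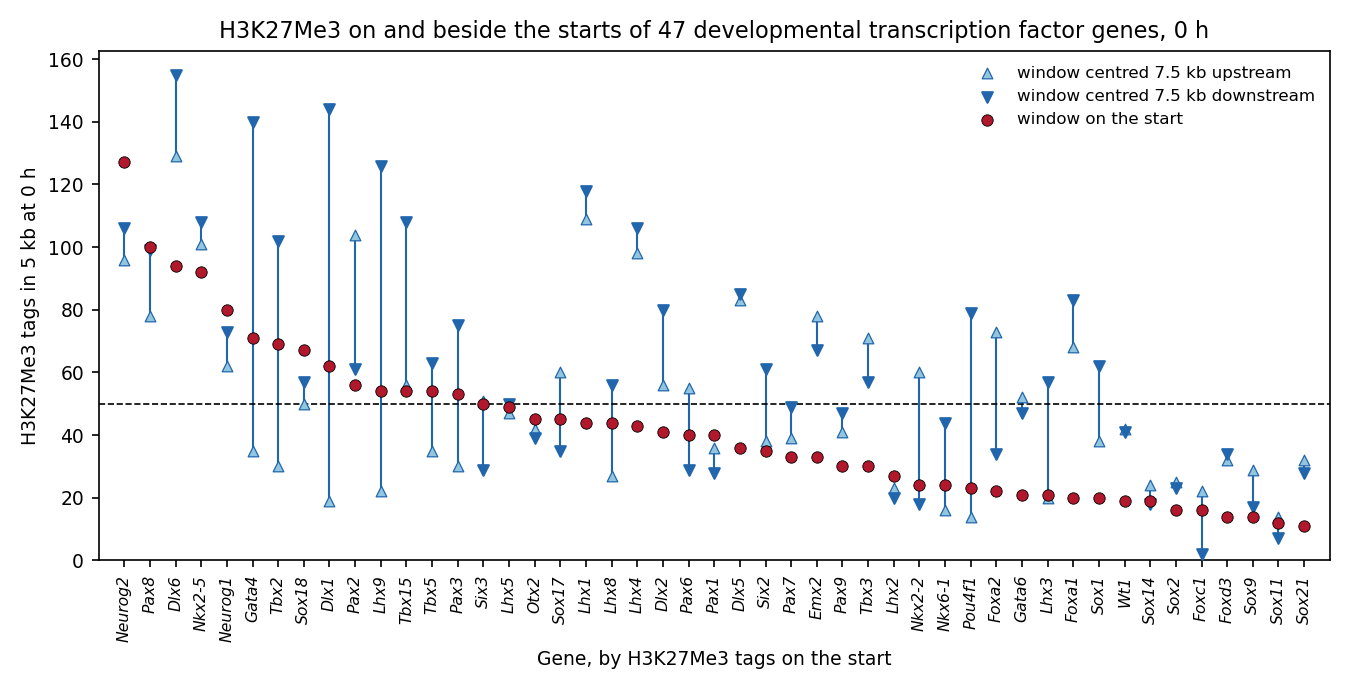
H3K27Me3 tags in 5 kb at 0 h for each of the 47 genes, ordered by the count on the start (red circles), with the windows centred 7.5 kb upstream (light blue triangles) and downstream (dark blue triangles) joined by a line; the dashed line is the cutoff of 50 tags. At 18 genes a flank is at or above the cutoff while the start is below it, and at 14 all 3 windows are below it.

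Broad regions were built by joining enriched 5 kb bins with at most 1 bin between them. At 0 hpi 22 of 47 starts (46.8%) lay in such a region, against 24.9% of all starts. The numbers at 3, 12, 24 and 48 hpi were 22, 19, 15 and 20. These were 46.8, 40.4, 31.9 and 42.6% of the 47, against 23.9, 26.3, 25.3 and 26.5% of all starts. The gap was smallest at 24 hpi. The regions over these starts had a median length of 50 kb at 0 hpi and 70 kb at 48 hpi, against 45 and 50 kb for the regions over all starts that lay in one. The 22 starts at 0 hpi and the 20 at 48 hpi were partly different genes, so these medians do not give a change in length. At 0 hpi 6 of the 47 starts lay in a region of at least 100 kb (12.8%, against 5.34% of all starts). All 6 lacked an active mark at 0 hpi, and they were 14.3% of the 42 such genes, against 8.02% of the 10943 other such starts. The longest, around Lhx1 (chr11:84325001-84575000), was 250, 210, 245, 230 and 245 kb at the 5 times. That over Tbx2 (chr11:85645001-85865000) was 220, 225, 220, 225 and 225 kb. At 0 hpi the Tbx2 region held 3 coding starts, with that of Tbx2 at its edge, and the Lhx1 region held 2, so both lengths span other genes too. Dlx5 and Dlx6 shared a region (chr6:6695001-6905000) of 210, 225, 205, 210 and 160 kb, and Pax2 lay in one (chr19:44795001-45005000) of 210, 235, 195, 250 and 210 kb. The region over Pax8 held at 145, 150, 145, 145 and 150 kb. Each of these starts lay in a region in every library.

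In all, 14 starts lay in a region at all 5 times (29.8%, against 18.9% of all starts), 19 at no time (40.4%, against 67.8%) and 14 at 1 to 4 times. Among starts without an active mark at 0 hpi, 28.6% of the 42 genes and 24.1% of the 10943 others lay in a region at all times, and 40.5% and 59.4% at no time. In 12 of the 14 constant cases the longest extent was at most 1.5 times the shortest. This comparison of extents was not made over all starts. Nkx2-5 kept exactly 70 kb in every library, and Gata4 had 95 kb in all but the 3 hpi library, where it had 125. The Gata4 region held 2 coding starts at 0 hpi. Pax3 lay in a region of 75, 80 and 85 kb up to 12 hpi and in none at 24 and 48 hpi. Its downstream flank held 75, 57, 37, 53 and 44 tags, above the cutoff at 0, 3 and 24 hpi.

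Both active marks counted here were nearly absent. H3K4Me1 was enriched at 4 of 47 starts at 0 hpi, against 44.2% of all starts, and at 3 at 48 hpi, against 39.8%. H3K27Ac was enriched at 2 at 0 hpi, against 46.3%, and at 3 at 48 hpi, against 47.1%. The median count over the 47 genes went from 4 tags at 0 hpi to 2 at 48 hpi for each mark, far below the window means of 14.2 and 19.3. At the 41 genes without an enriched active mark at any time, H3K4Me1 ranged from 0 to 24 tags and H3K27Ac from 0 to 13. For H3K4Me1, 5 genes were at least 2-fold lower at 48 than at 0 hpi (9.6% of all starts were) and 0 were at least 2-fold higher (3.27%). For H3K27Ac, 6 were lower (9.36%) and 1 was higher (5.28%). Apart from H3K4Me1 at Pou4f1 and H3K27Ac at Lhx2 and Dlx2, these changes were between counts of 13 tags or fewer. In windows of double width more genes were lower in H3K4Me1 and fewer in H3K27Ac, as given below. In H3K4Me1 the 47 genes had a median log2 change of -0.32, or -0.02 when scaled on background bins, and all starts had -0.27. In H3K27Ac the medians were -0.26 and -0.14.

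Active marks were found at 6 genes. Foxc1 had the highest H3K27Ac, with 294, 347, 253, 231 and 236 tags at 0, 3, 12, 24 and 48 hpi, and its ratio of 48 to 0 hpi was 0.803 (0.673 to 0.956). That fall rests on the scaling: the log2 change was -0.31 at equal depth and 0.10 when libraries were scaled on bins enriched at all times. H3K4Me1 at Foxc1 was 25, 22, 23, 28 and 19 tags, at the cutoff of 28 only at 24 hpi, and H3K27Me3 stayed low on its start and in its downstream flank, which held 2 tags at 0 hpi. Lhx2 had 235, 109, 161, 131 and 101 tags of H3K27Ac and 66, 84, 51, 37 and 46 of H3K4Me1. H3K27Ac at Lhx2 was highest at 0 hpi, with a ratio of 0.43 (0.337 to 0.545), and its log2 change was -1.18, or -0.78 when scaled on constantly enriched bins. More H3K27Ac lay inside the gene. At an annotated start 12027 bp downstream (chr2, 38206828), the counts were 1071, 1033, 615, 454 and 365. Lhx2 was enriched in H3K27Ac in 48 of the 100 bins of 1 kb around its start at 0 hpi and in 34 at 48 hpi.

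At its most upstream start, Dlx1 was the only gene of the 47 enriched in all 3 marks. It had 34, 34, 79, 64 and 50 tags of H3K27Ac, which passed the cutoff of 35 from 12 hpi on, 42, 61, 80, 47 and 42 of H3K4Me1 and 62, 47, 53, 52 and 63 of H3K27Me3. Both active marks were highest at 12 hpi, and the 48 to 0 hpi ratio of H3K27Ac was 1.47 (0.932 to 2.34), an interval that includes 1. The crossing of the H3K27Ac cutoff depended on the start chosen. The 5 other annotated starts of Dlx1, 570 to 2667 bp downstream, held 89 to 114 tags at 0 hpi and were enriched at all 5 times. The annotation also places an antisense transcript, Dlx1as, over the gene, and the marks cannot be assigned to either. Neurog2 had 51, 53, 57, 28 and 38 tags of H3K4Me1 beside its high H3K27Me3, and 19, 13, 21, 10 and 13 of H3K27Ac, under the cutoff. Counted at the most upstream start, Dlx1 and Neurog2 were the only genes with H3K27Me3 and H3K4Me1 together at 0 hpi, 2 of 47 (4.26%) against 7.48% of all starts.

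Pou4f1 had 40, 48, 40, 26 and 13 tags of H3K4Me1, a ratio of 0.325 (0.159 to 0.62). H3K27Me3 on its start went from 23 to 40 tags, below the cutoff of 50 throughout. From 0 to 48 hpi its upstream flank went from 14 to 22 tags and its downstream flank from 79 to 67. A further start 2634 bp downstream went from 43 to 48. Dlx2 had 21, 28, 22, 10 and 9 tags of H3K4Me1, reaching the cutoff at 3 hpi only, with a ratio of 0.429 (0.173 to 0.976). H3K27Ac at Dlx2 was 5, 11, 12, 17 and 15, the 1 rise of at least 2-fold among the 47 genes, from and to counts below the genome mean of 19.3. This rise no longer reached 2-fold in windows of double width, without thinning or when scaled on background bins. The fall of H3K4Me1 at Pou4f1 kept its direction under each scaling tried, from -0.92 to -1.32 on the log2 scale.

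**Figure D5:**
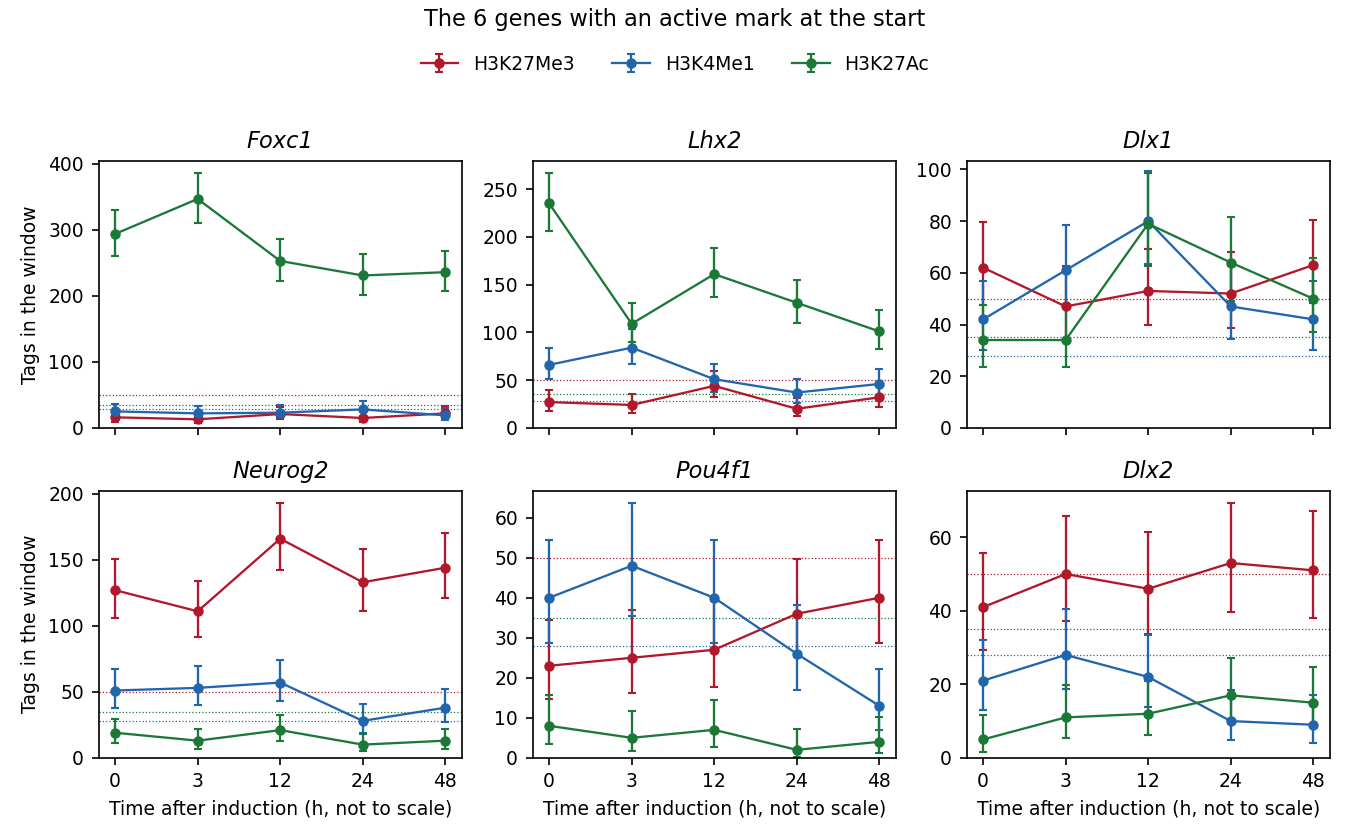
Tags of H3K27Me3 in 5 kb (red) and of H3K4Me1 (blue) and H3K27Ac (green) in 3 kb at each time, evenly spaced on the x axis, for the 6 genes with an enriched active mark; bars are exact 95% Poisson intervals and dotted lines the cutoffs of 50, 28 and 35 tags. H3K27Ac stands far above its cutoff at Foxc1 and Lhx2, and at Dlx1 H3K4Me1 is above its cutoff of 28 throughout, with 42 to 80 tags, while H3K27Me3 stays near 50.

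Many of these genes have further annotated starts, 161 in all for the 47. At the most upstream start, 20 genes were enriched in H3K27Me3 at some time (42.6%, against 29.6% of all starts). Counting the further starts brought that to 28, with Emx2, Lhx1, Lhx3, Lhx8, Otx2, Pax6, Pou4f1 and Tbx3, and added Lhx9 and Gata4 to the genes with active marks. The same count over all genes was not made. A start of Lhx9 6147 bp downstream (chr1, 140739006) had 103, 100, 126, 89 and 124 tags of H3K27Me3 together with 78, 67, 89, 96 and 102 of H3K27Ac and 32, 37, 48, 29 and 20 of H3K4Me1, so it was enriched in H3K27Me3 and H3K27Ac in every library. A start of Gata4 58085 bp downstream (chr14, 63832444) had 77, 66, 35, 36 and 33 tags of H3K4Me1 and passed the H3K27Ac cutoff at 3 hpi only, with 41 tags, while its H3K27Me3 was 70, 57, 56, 56 and 63. ChIP-seq of a cell population cannot tell marks on the same allele from marks on different cells or alleles.

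At 24 of the 47 most upstream starts (51.1%, against 29.7% of all starts) no mark was enriched at any time, although 7 of these genes had H3K27Me3 at a further start. Set against starts that likewise lacked an active mark at 0 hpi, the numbers were 24 of 42 developmental genes (57.1%) and 6562 of 10943 others, a share that was no lower. In 15 of these a flank was enriched in H3K27Me3 at some time, among them Otx2, Pax6, Lhx1, Foxa2, Gata6 and Wt1. That was 62.5% of the 24, against 23.6% of the 6562 other starts without a mark at any time, in windows placed with these genes' profile known. The remaining 9 had no enriched start window of any mark and no enriched H3K27Me3 flank in any library: Sox2, Sox9, Sox11, Sox14, Sox21, Foxd3, Pax1, Pax7 and Pax9.

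Relatives of these genes with roles in blood were counted in the same way. The 14 such genes came from the Pax, Gata, Sox, Fox, T-box, Pou and other homeobox or LIM families. In H3K27Ac 9 were enriched at 0 hpi (64.3%, interval 35.1 to 87.2%), against 46.3% of all starts, and 9 were at 48 hpi. These genes were picked with earlier results known, so the interval is no test of a difference from all starts. In H3K27Me3, 3 were enriched at 0 hpi (21.4%, against 21.8% of all starts) and 5 at 48 hpi (35.7%, against 23.8%). Pax5, the B-cell factor, had 1069 tags of H3K27Ac at 0 hpi and 269 at 48 hpi, where Pax8 had 5 and 0. Sox4, which acts in B-cell precursors, had 487 and 177, where Sox2 had 2 and 1. Tbx21, a T-cell factor, was enriched in H3K27Me3 at all 5 times, as Tbx2 was. The genes of the Polycomb machinery had active starts: 11 of 11 subunits of the H3K27 methylating complex PRC2 and its cofactors were enriched in H3K27Ac in every library, against 43.8% of all starts, and 13 of 16 of the second complex, PRC1, at 0 hpi, against 46.3%. In H3K27Me3, 7 of the 16 PRC1 genes were enriched at 0 hpi (43.8%, against 21.8% of all starts). Of these 7, 6 were also enriched in H3K27Ac and Phc2 was not. Of all 4844 starts enriched in H3K27Me3 at 0 hpi, 23.9% were also enriched in H3K27Ac. Whether both marks lay on the same alleles or in the same cells cannot be told. Pcgf6 held 118 tags of H3K27Me3 and Cbx2 held 99, within the 67 to 127 tags of the 8 developmental genes enriched at all times.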

How the data were processed

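ChIP-seq tags of C10 cells for 3 histone marks at 5 times after induction, 15 libraries, were assigned to groups as labelled. Illumina reads of 36 bp had been placed on mm9 by the authors, who used Bowtie or Eland with no mismatch allowed and retained uniquely aligned reads; the deposited files hold the position of 1 tag per line, without strand. The most tags at a position was 1 in 2 libraries, 2 in 11 and 135 and 205 in the others, so 1 tag per position was kept here. Libraries of a mark were thinned at random (seed 1) to the smallest. A tag was placed at its middle, 18 bp from its start. 0 of 259404327 distinct tags fell in bins of only unknown bases of NCBIM37, which is mm9. Gene starts came from GENCODE vM1, the most upstream start per gene, on chromosomes 1 to 19 and X. The genome mean was taken over bins with a tag at some time.

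Log2 changes used 5 tags added to each count. Intervals are exact (Poisson for counts, conditional binomial for ratios, binomial for shares). Those of counts and ratios cover counting error only, and those of shares treat genes as independent draws. PCR copies and the spread between cultures are not in them. With 1 library for each mark and time there was no test between times. The genes named with values were those not enriched in H3K27Me3 at 0 and 48 hpi (30 genes, shown with that mark only), those enriched in H3K27Ac, the highest and lowest 5 in H3K27Me3 at 0 hpi, the 3 largest rises and falls of each mark with at least 20 tags, and the 3 longest regions; the others enriched in H3K27Me3 and the genes with H3K4Me1 were added after their values were seen. The genes and lists were chosen with earlier results of these data known. Calls were tested on simulated tags drawn from a Poisson model, which covers counting error only and not base composition or the spread between cultures. Python 3.11.15, NumPy 2.4.6, pandas 2.3.3 and SciPy 1.17.1 were used.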

Additional observations from a re-analysis of the deposited data

How the results depend on the processing

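The 24 summary values and the log2 changes of 23 named genes were recomputed under 10 planned settings and 2 added after the data were seen. No change of at least 2-fold turned its direction. Smaller changes were not labelled for this, and those of H3K27Me3 at Dlx5 and H3K27Ac at Foxc1 did turn, as given above. The cause of a moved value was not tested. The recounts covered the developmental genes only, and shares of all starts were not computed under the changed thresholds, widths and scalings. With a level of at least 4-fold required, 1 gene was enriched in H3K27Me3 at 0 hpi, 1 at 48 hpi and 0 at all 5 times, and for H3K4Me1 1 at 0 hpi and 0 at 48 hpi. A Poisson tail of 0.00001 left 9 enriched in H3K27Me3 at 0 hpi. Windows of double width gave 14 genes enriched in H3K27Me3 at all 5 times, 0 at least 2-fold higher in it, 1 higher and 11 lower in H3K4Me1, and 0 higher and 3 lower in H3K27Ac. At 1.5-fold, 2 genes were higher and 5 lower in H3K27Me3, 13 lower in H3K4Me1, and 3 higher and 13 lower in H3K27Ac. Without thinning, 0 were 2-fold higher in H3K27Me3 and 0 in H3K27Ac; scaling on constantly enriched bins gave 0 for H3K27Me3 and scaling on background bins 0 for H3K27Ac. Region length at 0 hpi was 25 kb when bins were not joined. In flank windows 33 and 32 genes were enriched in H3K27Me3 at 0 and 48 hpi, and with any annotated start 4 in H3K27Ac at 0 hpi. For single genes, 409 of 414 values stayed within counting error. Much of this was fixed in advance. Of the 23 genes, only Pax8 and Pax2 had a different start under the setting of the start shared by most transcripts. Counts of a few tags, as most were for the active marks, have intervals too wide for the scalings to leave often. The number is thus no measure of how firm single changes are. The scalings shift all 48 hpi values of a mark by -0.17 to 0.53 (log2), more than the median changes of these genes, so the direction of those medians is not fixed for H3K27Me3 (-0.18 to 0.11). No paired analysis was possible because no group held more than 1 library.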

Other observations

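Active chromatin also lay near several of these starts. In the 50 kb to each side, the 1 kb bin with the most H3K27Ac held 452 tags at 0 hpi, 10.5 kb downstream of the start of Lhx2. A bin 28.5 kb upstream of Dlx1 held 308 tags at 48 hpi, and 204 tags at 0 hpi lay 21.5 kb upstream of Sox18, where 173 remained at 48 hpi. Lhx1 had 147 tags at 0 hpi and 120 at 48 hpi in the bin 11.5 kb downstream of its start. The nearest other coding start, that of Aatf, was 11899 bp from that of Lhx1. Tbx2 had the most H3K4Me1, with 117 tags at 0 hpi and 121 at 48 hpi in bins 20.5 and 19.5 kb upstream.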
